A study of Homo sapiens with 12 samples.

Results

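Proteoglycans and the hyaluronan matrix were represented by 10 genes, chosen by name with earlier results of these data known, and every probe whose gene name in the deposited table was one of them was taken. They were HAPLN1, HAS2, HAS3, VCAN, BGN, DCN, SDC1, SDC4, GPC1 and SRGN. The array held 20 probes for these 10 genes among 47228 probes in all, and 11 of the 20, for 7 genes, were bright enough to be tested. HAPLN1 was chosen from its readout, since its lower level with the hairpins against FAK was already known, so its values are given as a description with no test.

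Proteoglycans are proteins that carry long sulfated sugar chains, either heparan sulfate or chondroitin and dermatan sulfate. Hyaluronan is a sugar chain of the same family that has no core protein and is spun out of the cell by the hyaluronan synthases. Versican and link proteins hold it together as a gel, and syndecans and glypicans carry heparan sulfate at the cell surface, where they bind growth factors and matrix proteins next to integrins. Pancreatic ductal adenocarcinoma (PDAC) is known for a dense stroma that is rich in hyaluronan, most of it laid down by fibroblasts and stellate cells.

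RNA of a pair of established human pancreatic adenocarcinoma cell lines, MIA PaCa-2 and Capan-1, was hybridized to Illumina HumanHT-12 v4 bead arrays. Both were stable, puromycin-selected lines that carried a doxycycline-inducible hairpin from the Tet-pLKO-puro vector. The hairpin was a scrambled control (shCtrl) or 1 of 2 hairpins against focal adhesion kinase (FAK), named sh1209 and sh1319. The Capan-1 labels spell the latter shFAK1319, and both spellings were read as the same hairpin. All groups, controls included, received 50 ng/ml doxycycline for 96 hours. The puromycin dose was 3.5 ug/ml in MIA PaCa-2 cells and 1.5 ug/ml in Capan-1 cells. The amount of RNA stated for each sample was 500 ng. There were 12 arrays on 1 chip, 2 for each of the 6 groups. The labels and the methods leave unsaid if a group's 2 arrays were separate cultures, so p-values measure only the spread between these arrays, which may be technical. In bulk RNA, fewer cells that express a gene and less RNA per cell cannot be told apart.

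A probe was called detected where the deposited detection p was under 0.05, and between 16259 and 19814 of the 47228 probes were detected on an array. The median intensity of an array was 87.7 to 97.0. Levels are given either as the deposited intensity on a linear scale or as normalized log2 intensity, for which the background was corrected with an offset of 16 and the arrays were quantile-normalized. The offset understates the change of dim probes. The lowest detected signal of an array lay between 4.55 and 4.74 on this log2 scale. Levels of different probes cannot be set against each other. Compared to shCtrl, the bright probe of PTK2, which encodes FAK, kept 21.1% (sh1209) and 17.9% (sh1319) of its level in MIA PaCa-2, whereas Capan-1 kept 65.4% and 29.2%. The fall passed the test in each comparison (limma, adjusted p = 0.0036 or less), but with sh1209 in Capan-1 not when arrays were scaled to a common median (log2 change -0.42, adjusted p = 0.23). The dim PTK2 probe 2680750 passed in no comparison (adjusted p = 0.08 to 0.25).

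The cell lines differed in their epithelial markers. All 6 epithelial markers were detected on both arrays of every Capan-1 group, whereas in MIA PaCa-2 only KRT8 and KRT18 were detected on all 6 arrays, and CDH1 on none. The summed intensity of the epithelial probes in MIA PaCa-2 was 2572.0 to 2687.0 with shCtrl, 1960.9 to 2170.2 with sh1209 and 1643.9 to 1819.5 with sh1319. KRT8 was the brightest of these probes there, at 835.5 to 1773.5, so the sum does not show the markers as a group. KRT19 was detected on both arrays only with shCtrl. EPCAM was detected on both sh1209 arrays and KRT7 on both sh1319 arrays, at no more than 98.8 and 103.8 in this line, and neither with shCtrl. Markers of fibroblasts and stellate cells were low. Of 8 such markers, PDGFRB, FAP and THY1 were detected on no array, while COL3A1 and ACTA2 were detected with both hairpins against FAK in MIA PaCa-2 and not with shCtrl, at intensities of up to 282.5 and 234.3. The summed intensity of this list was 854.8 to 885.3, 1028.1 to 1111.5 and 1104.9 to 1253.7 in the shCtrl, sh1209 and sh1319 groups of MIA PaCa-2. In Capan-1 it was 921.0 to 937.0, 937.2 to 1034.0 and 994.8 to 1072.3, with ACTA2 detected on all 6 arrays (145.8 to 224.7) and LUM on both sh1319 arrays. The part of either list in the results on MIA PaCa-2 was not tested.

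In MIA PaCa-2, HAPLN1 was lower with both hairpins, HAS3 rose with both, SDC1 and SDC4 fell with both, and SRGN fell with sh1209. In Capan-1 the clearest change was a rise of SDC4 with sh1209. The map of all probes shows where each gene was seen at all.

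**Figure D1:**
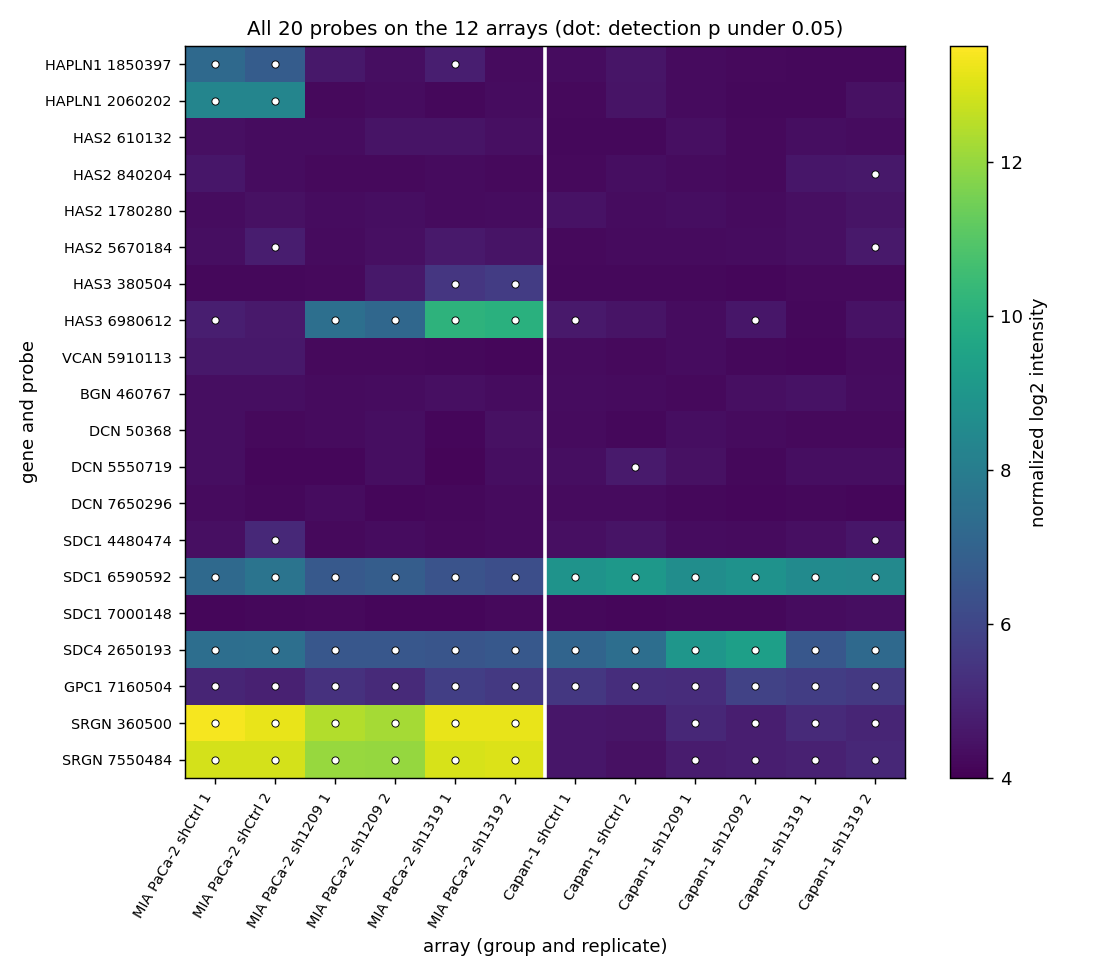
Normalized log2 intensity (colour) of the 20 probes (rows) on the 12 arrays (columns, by group and replicate), with a dot where the detection p was under 0.05; colours are to be read along a row. SRGN, bright in the 6 MIA PaCa-2 arrays, was at or near background in Capan-1, HAPLN1 probe 2060202 was detected only on the 2 MIA PaCa-2 shCtrl arrays, and VCAN, BGN, HAS2 and DCN were at or near background throughout.

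Of the 9 tested probes that belong to genes other than HAPLN1, 1 was higher and 4 were lower with sh1209 in MIA PaCa-2. The share called among all 24207 tested probes was 9.05% higher and 8.99% lower (limma, adjusted p under 0.05). With sh1319 in MIA PaCa-2, 3 were higher and 2 lower, against 12.2% and 12.1% of all tested probes. HAS3 probe 380504, 1 of the 3, was detected in this group alone. With a stricter filter (detection p under 0.01 on at least 4 arrays), 2 were higher and 2 lower there. With sh1209 in Capan-1, 1 was higher and none lower, against 8.14% and 8.69%. With sh1319 in Capan-1, 2 were higher and none lower, against 6.95% and 6.77%. The median change of the 9 probes was -0.48, 0.01, 0.03 and 0.05 in these 4 comparisons, and that of all tested probes was 0.01, -0.01, -0.01 and -0.00. The comparisons within a cell line share their shCtrl arrays. HAS3, SDC1 and SRGN have 2 of the 9 probes each, and probes of 1 gene are not independent. When arrays were scaled to a common median and not quantile-normalized (median scaling), the share of higher probes among all calls went from 50.2% to 50.9%, from 50.3% to 66.6%, from 48.4% to 81.7% and from 50.6% to 85.3%. The methods' t-test, with only the 2 arrays of each of the 2 groups behind it, called 0 of the 9 probes after adjustment in these 4 comparisons, and 4, 5, 1 and 2 at an unadjusted p under 0.05.

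The hairpins were also compared with each other, and the cell lines with shCtrl. In MIA PaCa-2, none of the 9 probes was higher and 4 were lower with sh1209 than with sh1319. The shares of all tested probes were 11.5% and 11.2%, and 50.6% of those calls were higher, or 34.7% under median scaling. HAS3 probe 380504, 1 of the 4, passed the filter only through the sh1319 group of MIA PaCa-2, where it was high. In Capan-1, 1 was higher and none lower, against 5.81% and 5.47%. Between MIA PaCa-2 and Capan-1 with shCtrl, 2 were higher and 1 lower in MIA PaCa-2, against 22.5% and 19.6%. The mean response to both hairpins differed between the cell lines for 5 probes, 2 more positive and 3 more negative in MIA PaCa-2, against 7.24% and 7.11% of all tested probes. Of all probes called there, 50.4% were more positive in MIA PaCa-2, and 31.7% under median scaling. The same HAS3 probe 380504 was 1 of the 2 more positive ones.

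Promoter sequence is shown for HAPLN1, HAS3 and SDC4, which were lower with both hairpins in MIA PaCa-2, higher with both there, and higher with 1 hairpin in Capan-1. The 250 bases before the annotated start were taken from RefSeq, build GRCh38.p14, 5′ to 3′ on the strand of the gene. They lie at chr5:83720856-83721105 on the minus strand for HAPLN1, chr16:69107290-69107539 on the plus strand for HAS3 and chr20:45348425-45348674 on the minus strand for SDC4. The start given for HAS3 lies inside the span of the gene. Capitals mark the GC box, GGGCGG on either strand, the motif that SP and KLF factors bind.
HAPLN1: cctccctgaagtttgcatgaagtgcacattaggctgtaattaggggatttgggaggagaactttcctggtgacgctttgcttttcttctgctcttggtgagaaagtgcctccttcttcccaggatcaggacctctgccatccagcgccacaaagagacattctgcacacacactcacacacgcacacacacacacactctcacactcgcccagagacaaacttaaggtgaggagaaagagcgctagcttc
HAS3: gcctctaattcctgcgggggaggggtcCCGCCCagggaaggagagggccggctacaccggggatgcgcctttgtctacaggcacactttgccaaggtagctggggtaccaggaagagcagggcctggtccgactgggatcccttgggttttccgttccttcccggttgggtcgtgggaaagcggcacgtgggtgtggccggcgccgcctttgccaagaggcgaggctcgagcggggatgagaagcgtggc
SDC4: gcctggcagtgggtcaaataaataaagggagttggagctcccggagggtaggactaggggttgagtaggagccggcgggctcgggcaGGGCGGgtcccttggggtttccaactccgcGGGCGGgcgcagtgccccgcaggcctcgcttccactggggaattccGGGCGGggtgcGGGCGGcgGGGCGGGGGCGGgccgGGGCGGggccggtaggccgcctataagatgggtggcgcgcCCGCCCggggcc
The HAPLN1 stretch held no GC box, that of HAS3 held 1 and that of SDC4 held 8, which do not overlap. Their GC content was 50.8%, 66.0% and 73.6%, and the median of 35116 promoters of this length was 58.0%. A GC box was present in 42.6% of these promoters. The AP-1 motif TGANTCA, the TEAD motif GGAATG, the CCAAT box and the TATA box TATAAA, each searched on both strands, are held by 6.57%, 11.9%, 32.0% and 10.7% of all promoters and had 0 matches in these 3. Of the 10 genes, 7 had an entry in the table, and a match is a description of letters and not a site.

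HAPLN1 encodes hyaluronan and proteoglycan link protein, which locks the bond between hyaluronan and proteoglycans such as versican. On probe 2060202 its deposited intensity was 373.3 and 349.8 on the MIA PaCa-2 shCtrl arrays, 81.7 and 90.7 with sh1209, and 82.9 and 91.8 with sh1319. In Capan-1 it was 82.3 and 94.7 with shCtrl, 84.5 and 84.7 with sh1209, and 83.7 and 96.9 with sh1319. The probe was detected on both control arrays of MIA PaCa-2 and on no other array, and the control group did not overlap with any other group. In MIA PaCa-2 the shCtrl group had a normalized log2 level of 8.33 ± 0.02 (SD, n = 2), the sh1209 group 4.29 ± 0.06 (SD, n = 2) and the sh1319 group 4.25 ± 0.07 (SD, n = 2). Against control this was a level lower by at least 12.7 fold (sh1209) and at least 12.3 fold (sh1319). A fold of this kind sets the mean of the brighter group against the lowest detected signal of the arrays of the group in which the probe was not detected. The MIA PaCa-2 control level was above that of the Capan-1 control by at least 13.3 fold.

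The second HAPLN1 probe, 1850397, had intensities of 207.9 and 161.3 with shCtrl in MIA PaCa-2, 90.9 and 91.6 with sh1209, and 98.2 and 91.1 with sh1319. In Capan-1 it ranged from 82.8 to 95.1 and was not detected. Its log2 level in MIA PaCa-2 was 7.01 ± 0.32 (SD, n = 2) for shCtrl, 4.49 ± 0.19 (SD, n = 2) for sh1209 and 4.54 ± 0.36 (SD, n = 2) for sh1319. The sh1209 level was below control by at least 5.08 fold, and 1 of the 2 sh1319 arrays still detected the probe. Both probes therefore had the control group of MIA PaCa-2 above the other 5 groups, whose intensities were at or near background. Without background correction the log2 change of probe 2060202 was smaller, at -2.17 with sh1209 and -2.21 with sh1319 in place of -4.04 and -4.07. For probe 1850397 it was -1.12 and -1.11 in place of -2.52 and -2.47.

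The probes whose pattern over the 12 arrays was most like that of HAPLN1 probe 2060202 belonged to SFRP1, a secreted WNT antagonist (Pearson r = 0.996), MMP1, interstitial collagenase (r = 0.995), and TNFSF4, a ligand of the TNF family (r = 0.992). These arrays share 1 chip and form 6 groups, so r is a description over 12 arrays and not a test.

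VCAN encodes versican, the large chondroitin sulfate proteoglycan that binds hyaluronan, and in the gene order of RefSeq it is the next gene to HAPLN1 on the same chromosome. Its only probe, 5910113, was detected on no array, with a lowest detection p of 0.06753. The intensity was 93.1 and 96.1 with shCtrl in MIA PaCa-2, 81.7 and 87.2 with sh1209, 83.4 and 84.8 with sh1319, and 80.4 to 90.4 in Capan-1. The 2 control arrays of MIA PaCa-2 were the highest of the 12. With no array above background the probe was not tested, and no fold is given.

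**Figure D2:**
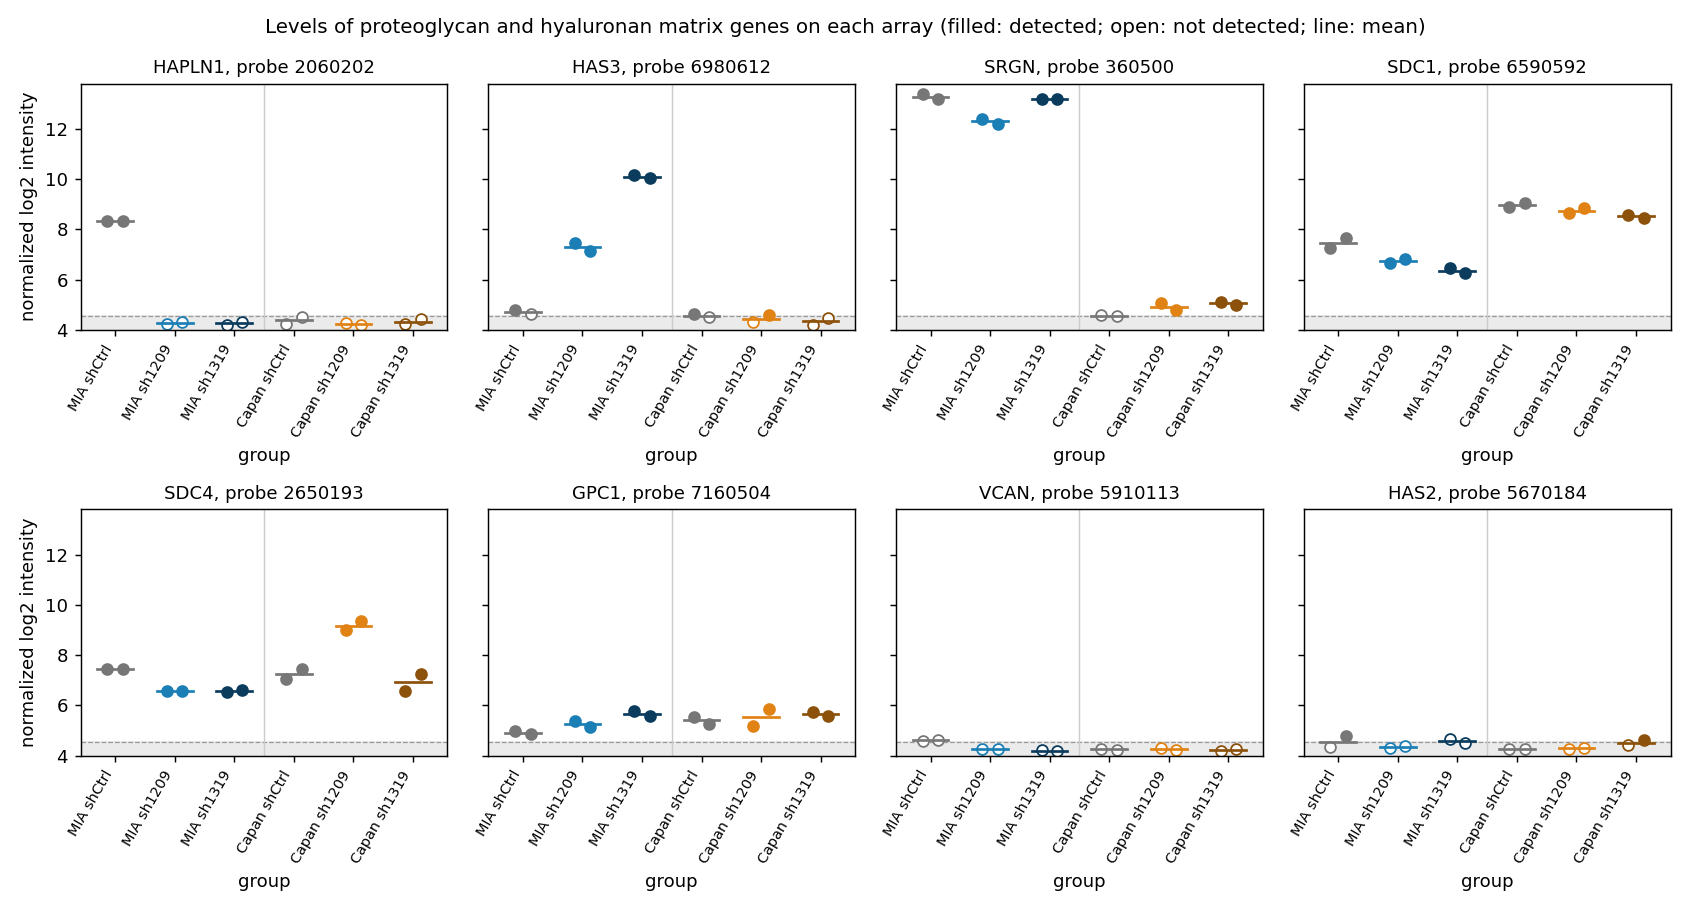
Normalized log2 intensity (vertical axis) on each array of the 6 groups (horizontal axis; MIA, MIA PaCa-2; Capan, Capan-1) for 8 probes; filled points were detected, open points were not, horizontal lines are group means of 2 arrays and the grey band lies below the lowest detected signal. HAPLN1 lay in the band with both hairpins in MIA PaCa-2, HAS3 stood at group means of 7.31 and 10.09 there, and SDC4 at 9.17 with sh1209 in Capan-1.

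HAS3 encodes a hyaluronan synthase of the plasma membrane. On probe 6980612 the intensity in MIA PaCa-2 was 96.3 on both shCtrl arrays, 208.9 and 212.8 with sh1209, and 1155.7 and 1342.8 with sh1319. The 3 groups did not overlap, and 1 of the 2 control arrays passed detection. In Capan-1 the intensity stayed between 82.1 and 100.6, and 2 of 6 arrays passed detection. The MIA PaCa-2 groups had log2 levels of 4.72 ± 0.11 (SD, n = 2) for shCtrl, 7.31 ± 0.22 (SD, n = 2) for sh1209 and 10.09 ± 0.08 (SD, n = 2) for sh1319. Compared to control, HAS3 increased by 6.05 fold with sh1209 (log2 change 2.60, 95% CI 2.26 to 2.93, limma, adjusted p = 4.4e-07) and by 41.5 fold with sh1319 (5.38, CI 5.04 to 5.71, adjusted p = 1.1e-09). The control level lay at the limit of detection, with 1 of its 2 arrays not detected, so these folds are fitted values and depend on the background.

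The level of HAS3 with sh1209 was also below that with sh1319 in MIA PaCa-2 (log2 difference -2.78, adjusted p = 2.8e-07). In Capan-1 the log2 change was -0.12 (CI -0.45 to 0.21, adjusted p = 0.71) and -0.23 (CI -0.56 to 0.10, adjusted p = 0.40). The mean response to both hairpins in MIA PaCa-2 exceeded that in Capan-1 by 4.16 log2 units (CI 3.75 to 4.57, adjusted p = 1e-07). Without background correction the rises were 1.24 and 3.56 log2 units, and both still passed the test (highest adjusted p over 8 alternatives 2.4e-04 and 1.4e-05).

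A second HAS3 probe, 380504, was dimmer. In MIA PaCa-2 its intensity was 81.5 and 83.2 with shCtrl, 81.7 and 97.6 with sh1209, and 110.5 and 129.3 with sh1319. Only the 2 sh1319 arrays of MIA PaCa-2 detected it, so it passed the filter only through the group in which it was high. Its tests, also those in the counts, are therefore no separate support for the rise. The probe was at least 1.84-fold higher with sh1319 than with shCtrl (limma, adjusted p = 1.7e-05) and at least 1.90-fold higher than with sh1209 (adjusted p = 6.7e-05). With sh1209 the log2 change was 0.21 (CI -0.08 to 0.50, adjusted p = 0.33). Without background correction the rise with sh1319 was 0.54 and still passed. The call for sh1209 rests on probe 6980612 alone.

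HAS2, the synthase that makes long hyaluronan chains in many mesenchymal cells, had 4 probes and no group in which both arrays passed detection. Their intensities lay between 80.8 and 102.8 over all 12 arrays. Probe 5670184 was detected on 1 shCtrl array of MIA PaCa-2 and 1 sh1319 array of Capan-1, which let it pass the filter, and no comparison passed the test (adjusted p = 0.13 to 0.97). The other 3 probes were not tested.

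SRGN encodes serglycin, a small proteoglycan stored in secretory granules that is best known from blood cells. On probe 360500 the intensity in MIA PaCa-2 was 11362.2 and 10056.7 with shCtrl, 4705.7 and 5200.7 with sh1209, and 9553.9 and 11788.2 with sh1319. In Capan-1 it was 91.6 and 95.5 with shCtrl, 104.3 and 107.1 with sh1209, and 110.1 and 114.9 with sh1319. The sh1209 group of MIA PaCa-2 lay below the other 2 groups of the line, which overlapped. Every Capan-1 array was near background, and the 2 shCtrl arrays there were not detected.

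Compared to control, SRGN decreased with sh1209 in MIA PaCa-2 by 1.98 fold (log2 change -0.99, 95% CI -1.28 to -0.69, limma, adjusted p = 3.7e-04). With sh1319 the log2 change was -0.10 (CI -0.39 to 0.20, adjusted p = 0.68). The difference between the hairpins passed the test (-0.89, adjusted p = 5.3e-04). Probe 7550484 gave -0.86 with sh1209 (adjusted p = 3.3e-04), 0.07 with sh1319 (adjusted p = 0.74) and -0.94 between the hairpins (adjusted p = 1.2e-04). With shCtrl, the SRGN level of MIA PaCa-2 exceeded that of Capan-1 by at least 411 fold on probe 360500 and at least 313 fold on probe 7550484 (adjusted p = 9.4e-13 and 5.1e-13). These bounds hold for the background-corrected scale. Without background correction the log2 difference was 6.72 and 6.35 in place of 8.72 and 8.38.

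In Capan-1, SRGN was higher with sh1319 by at least 1.37 fold on probe 360500 (adjusted p = 0.031) and at least 1.29 fold on probe 7550484 (adjusted p = 0.021), from a group with no detected array. These calls were lost without background correction (log2 change 0.15 on both probes, adjusted p = 0.23 and 0.16). They were also lost without any 1 of the 4 arrays for probe 360500 (adjusted p = 0.072 to 0.17) and, for probe 7550484, without replicate 2 of shCtrl or of sh1319 (adjusted p = 0.14 for each). With sh1209 the changes were 0.37 (adjusted p = 0.09) and 0.25 (adjusted p = 0.19). The mean response differed between the lines by -0.97 and -0.75 (adjusted p = 0.0024 and 0.0044). Of the blood cell markers, PTPRC was detected on 1 of 6 MIA PaCa-2 arrays, on 1 probe with a highest intensity of 99.9. CD14 and LYZ were each detected on 5 of 6 MIA PaCa-2 arrays, among them all 4 with hairpins against FAK, at intensities of no more than 103.1 and 110.2, and CD3E and HBB on 1 array each, with highest intensities of 97.1 and 96.9. These markers were thus at or near background in MIA PaCa-2, where SRGN was bright. In Capan-1, where SRGN was near background, LYZ was detected on both arrays of each group, at 1683.9 to 4093.8 on its brighter probe.

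The probes most like SRGN over the 12 arrays were those of NME4 (r = 0.998), SCG2 (r = 0.997) and SDPR (r = 0.997) for probe 360500, and NME4, BMP7 and TPM2 (r = 0.998 each) for probe 7550484. NME4 is a mitochondrial nucleoside diphosphate kinase, SCG2 a granin of secretory granules, BMP7 a bone morphogenetic protein and TPM2 a tropomyosin. The 12 arrays fall into 2 clusters by cell line on these probes, and r describes that split.

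SDC1 encodes syndecan-1, the main heparan sulfate proteoglycan of epithelial cell surfaces. On probe 6590592 the intensity in MIA PaCa-2 was 208.2 and 240.1 with shCtrl, 147.4 and 181.6 with sh1209, and 145.8 and 158.6 with sh1319. Intensities in Capan-1 were 492.0 and 589.4 with shCtrl, 448.0 and 642.6 with sh1209, and 439.5 and 526.9 with sh1319. The control arrays of MIA PaCa-2 were above the other 4 of the line, and every Capan-1 array was above every MIA PaCa-2 array. Compared to control, SDC1 decreased in MIA PaCa-2 by 1.65 fold with sh1209 (log2 change -0.72, 95% CI -1.05 to -0.39, limma, adjusted p = 0.0063) and by 2.12 fold with sh1319 (-1.09, CI -1.42 to -0.76, adjusted p = 2.7e-04). Without replicate 2 of shCtrl the sh1209 change was -0.51 (adjusted p = 0.056). Without background correction the changes were -0.47 and -0.68, and both passed.

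In Capan-1 the log2 change of SDC1 was -0.23 (CI -0.56 to 0.11, adjusted p = 0.39) with sh1209 and -0.46 (CI -0.79 to -0.12, adjusted p = 0.071) with sh1319. The latter passed in a fit of Capan-1 alone (adjusted p = 0.046) and without background correction (-0.39, adjusted p = 0.0035), while under median scaling the change was -0.24 (adjusted p = 0.6). With shCtrl, the SDC1 level of MIA PaCa-2 was 2.87-fold below that of Capan-1 (-1.52, adjusted p = 5.9e-06). The difference of the mean response between the lines, -0.56 (CI -0.97 to -0.16), did not pass (adjusted p = 0.066), but did without replicate 1 of shCtrl in MIA PaCa-2 (-0.77, adjusted p = 0.022). Of the other 2 SDC1 probes, 4480474 was detected on 2 of 12 arrays and passed no test (adjusted p = 0.08 to 0.99), and 7000148 was detected on none.

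SDC4 encodes syndecan-4, the syndecan of focal adhesions, where it acts with integrins on fibronectin. On its single probe, 2650193, the intensity in MIA PaCa-2 was 228.9 and 218.1 with shCtrl, 143.1 and 165.4 with sh1209, and 149.8 and 182.2 with sh1319. Those of Capan-1 were 192.8 and 248.1 with shCtrl, 540.2 and 889.7 with sh1209, and 173.8 and 283.1 with sh1319. Both hairpin groups lay below control in MIA PaCa-2, whereas in Capan-1 sh1209 stood above the other 2 groups, which overlapped. In Capan-1, replicate 2 of each group was the higher one.

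Compared to control, SDC4 increased with sh1209 in Capan-1 by 3.80 fold (log2 change 1.93, 95% CI 1.48 to 2.38, limma, adjusted p = 8.4e-05), whereas with sh1319 the change was -0.33 (CI -0.79 to 0.12, adjusted p = 0.36). The hairpins differed there by 2.26 (adjusted p = 3.5e-05). In MIA PaCa-2, SDC4 decreased by 1.83 fold with sh1209 (-0.87, adjusted p = 0.012) and by 1.85 fold with sh1319 (-0.89, adjusted p = 0.0079). The sh1209 call in MIA PaCa-2 was lost without replicate 1 of sh1209 (-0.88, adjusted p = 0.054), without replicate 2 of sh1209 (-0.87, adjusted p = 0.055) and without replicate 2 of shCtrl (-0.86, adjusted p = 0.051). Without background correction the MIA PaCa-2 changes were -0.56 and -0.57, and both passed. The hairpins did not differ in MIA PaCa-2 beyond their spread (0.02, CI -0.43 to 0.47, adjusted p = 0.97), nor did the lines with shCtrl (0.21, CI -0.25 to 0.66, adjusted p = 0.47). The mean response differed between the lines by -1.68 (CI -2.23 to -1.13, adjusted p = 0.0011), with sh1209 alone giving a positive change in Capan-1.

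**Figure D3:**
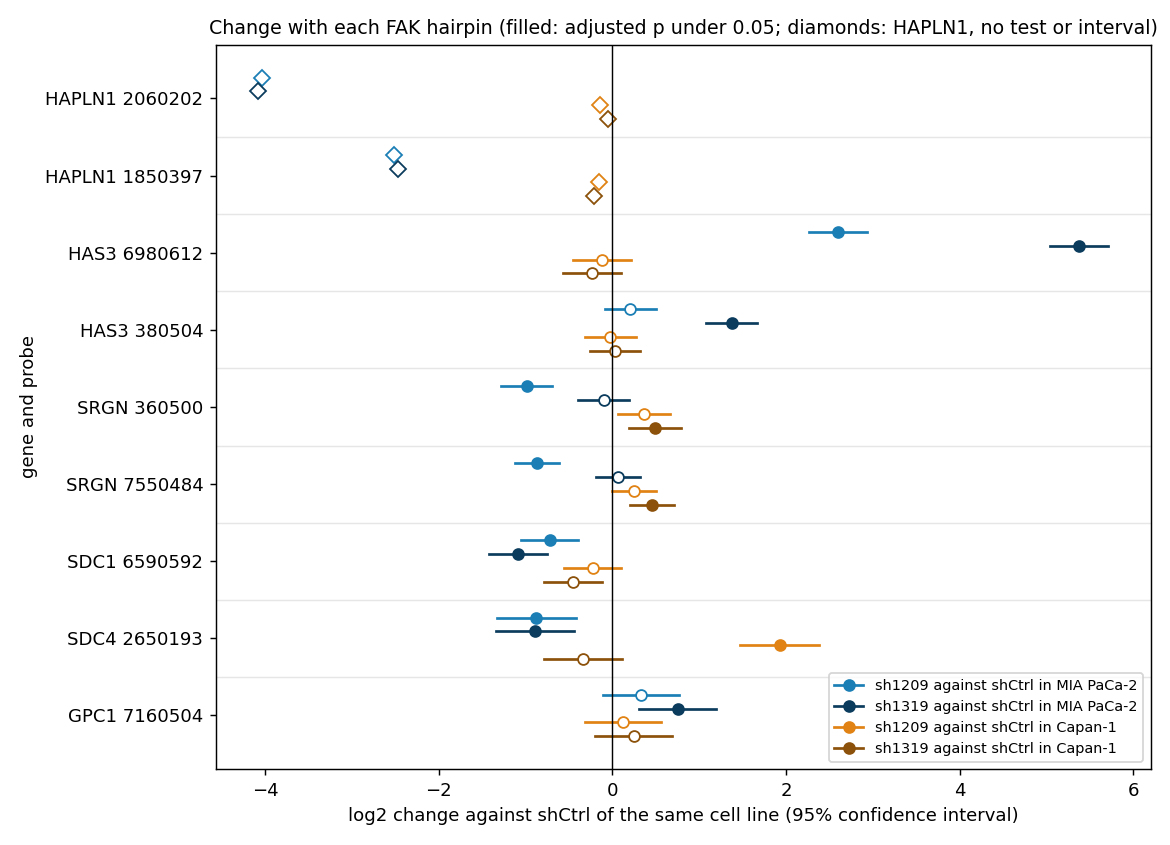
Log2 change against shCtrl of the same cell line (horizontal axis) for 9 probes (vertical axis), with 95% confidence intervals from the fit of all 6 groups; filled symbols passed an adjusted p of 0.05, and HAPLN1 (diamonds) has no test or interval. HAS3 probe 6980612 lies at 2.60 and 5.38 in MIA PaCa-2 and near 0 in Capan-1, and SDC4 lies at 1.93 with sh1209 in Capan-1 and below 0 in the other comparisons.

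GPC1 encodes glypican-1, a heparan sulfate proteoglycan held in the membrane by a lipid anchor. Its intensity was close to background on all arrays, though detected on each. It was 99.2 and 99.6 with shCtrl in MIA PaCa-2, 102.0 and 107.3 with sh1209, and 119.1 and 124.1 with sh1319. The Capan-1 values were 114.6 and 112.1 with shCtrl, 107.4 and 155.1 with sh1209, and 129.7 and 141.1 with sh1319. The 3 groups of MIA PaCa-2 did not overlap, and in Capan-1 the sh1209 arrays spanned both other groups. With sh1319 in MIA PaCa-2, GPC1 increased by 1.69 fold (log2 change 0.75, 95% CI 0.31 to 1.19, limma, adjusted p = 0.017). This call was lost without replicate 1 of sh1319 (0.65, adjusted p = 0.11) and without replicate 2 of shCtrl (0.69, adjusted p = 0.081), and without background correction the change was 0.27. The changes with sh1209 in MIA PaCa-2 (0.33, adjusted p = 0.31) and with sh1209 and sh1319 in Capan-1 (0.13 and 0.25, adjusted p = 0.78 and 0.51) did not pass. With shCtrl, GPC1 differed by -0.48 between MIA PaCa-2 and Capan-1 (adjusted p = 0.074), and by -0.60 (adjusted p = 0.040) under median scaling.

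BGN and DCN encode biglycan and decorin, small leucine-rich proteoglycans that stromal fibroblasts secrete and that bind collagen fibrils. The BGN probe was detected on no array, with intensities of 81.7 to 94.4. Of the 3 DCN probes, 5550719 was detected on 1 shCtrl array of Capan-1 and the other 2 on none, with intensities of 77.2 to 98.7 over the 3. None of them passed the filter, and nothing is tested. Both genes were thus at or near background in either line.

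The other genes of the pathway were counted by lists chosen with earlier results known. In the list for hyaluronan synthesis, turnover and binding, 13 of 21 genes were tested with 21 probes. With sh1209 and sh1319 in MIA PaCa-2, 1 and 2 probes were higher and 4 and 3 lower. With sh1209 and sh1319 in Capan-1, 2 and 0 were higher and 3 and 4 lower. In the 4 comparisons the higher probes made up 4.76%, 9.52%, 9.52% and 0.0% of the list, against 9.05%, 12.2%, 8.14% and 6.95% of all tested probes. The lower ones made up 19.0%, 14.3%, 14.3% and 19.0%, against 8.99%, 12.1%, 8.69% and 6.77%. The median change was 0.05, 0.00, -0.09 and -0.16, and under median scaling 0.05, 0.15, 0.07 and -0.09. Its sign turned with sh1209 in Capan-1. For all tested probes the median under that scaling was 0.02, 0.04, 0.09 and 0.11, to be read beside the lists below too. Under that scaling 1, 2, 1 and 0 probes of the list were higher and 4, 2, 1 and 0 lower. UGP2, which makes UDP-glucose, and UGDH, which oxidizes it to the UDP-glucuronate that hyaluronan and the sulfated chains need, had lower calls with sh1209 in MIA PaCa-2. Of 5 tested UGP2 probes, 3 fell, by 1.13, 1.04 and 0.99 log2 units (limma, adjusted p = 0.0022 and 4.8e-04 for the first 2), and the other 2 gave -0.74 and 0.12 and did not pass. UGDH fell by 1.06 on its single tested probe (adjusted p = 2.1e-04). With sh1319 the 5 UGP2 probes gave 0.16 to 0.68, of which the highest passed (adjusted p = 0.005), and UGDH gave -0.00 (adjusted p = 0.99). KIAA1199, now CEMIP, which takes part in the breakdown of hyaluronan, fell in Capan-1 by 1.84 log2 units with sh1209 (adjusted p = 1.8e-06). With sh1319 it fell by 0.43 (adjusted p = 0.037), but not under median scaling (-0.15, adjusted p = 0.76), and it was not detected in MIA PaCa-2.

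In the list for the sugar linker and heparan sulfate synthesis, 21 of 30 genes were tested with 27 probes. With sh1209 and sh1319 in MIA PaCa-2, 1 and 8 probes were higher and 7 and 6 lower, and in Capan-1 7 and 4 were higher and 1 lower with each. The higher probes made up 3.7%, 29.6%, 25.9% and 14.8% of the list and the lower ones 25.9%, 22.2%, 3.7% and 3.7%, where the shares of all tested probes were 8.99% to 12.2% per direction in MIA PaCa-2 and 6.77% to 8.69% in Capan-1. Under median scaling the MIA PaCa-2 counts were 1 and 9 higher with 2 lower for each hairpin, and those of Capan-1 were 8 and 6 higher with none lower. The median change was -0.05, 0.16, 0.15 and 0.16, and -0.02, 0.31, 0.36 and 0.30 under that scaling. With sh1319 in MIA PaCa-2, XYLT2, which starts the linker, rose by 1.30 (limma, adjusted p = 1.3e-05). EXTL2, a transferase that acts on the linker, rose there by 1.19 and 1.12 on its 2 probes (adjusted p = 5.2e-04 and 6e-05). In Capan-1, XYLT2 also rose with sh1209, by 0.52 (adjusted p = 0.012), and EXTL2 probe 2630215 with sh1319, by 0.43 (adjusted p = 0.045). FAM20B, the kinase of the linker xylose, fell by 1.27 with sh1209 in MIA PaCa-2 (limma, adjusted p = 8e-05). With sh1319 there its change was -0.43 (adjusted p = 0.042), which did not pass under median scaling (-0.27, adjusted p = 0.55). SULF2, which removes sulfate from heparan sulfate outside the cell, had 3 tested probes that disagreed. The 1 that passed in MIA PaCa-2 was lower there by at least 1.61 fold (sh1209) and at least 1.56 fold (sh1319) (adjusted p = 0.0019 and 5.5e-04). The other 2 did not pass there, with -0.32 and -0.02 for sh1209 and -0.27 and -0.10 for sh1319. In Capan-1 all 3 rose with sh1319, by 0.90 (adjusted p = 0.0038), 0.83 and 0.87.

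In the list for chondroitin and dermatan sulfate synthesis, 14 of 16 genes were tested with 1 probe each. With sh1209 and sh1319 in MIA PaCa-2, 1 and 2 were higher and 2 lower with each, and in Capan-1 4 and 3 were higher and none lower. That is 7.14%, 14.3%, 28.6% and 21.4% higher and 14.3%, 14.3%, 0.0% and 0.0% lower, beside 8.99% to 12.2% per direction for all tested probes in MIA PaCa-2 and 6.77% to 8.69% in Capan-1. The median change was -0.09, -0.06, 0.22 and 0.07, and under median scaling -0.04, -0.00, 0.43 and 0.27. DSE, the epimerase that turns chondroitin into dermatan sulfate, rose in Capan-1 by 2.32 with sh1209 (adjusted p = 4.3e-07) and 1.60 with sh1319 (adjusted p = 2.7e-05), and was not detected in MIA PaCa-2. CHST7, a sulfotransferase, rose in MIA PaCa-2 by 1.19 with sh1209 (adjusted p = 7.3e-05) and 1.85 with sh1319 (adjusted p = 1.3e-06), with changes of 0.16 and -0.03 in Capan-1.

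In the list of other proteoglycan core proteins, 19 of 30 genes were tested with 20 probes. With sh1209 and sh1319 in MIA PaCa-2, 1 and 4 probes were higher and 1 and 0 lower, and in Capan-1 1 and 3 were higher and none lower. All tested probes had 8.99% to 12.2% called per direction in MIA PaCa-2 and 6.77% to 8.69% in Capan-1. The list had 5.0% in each direction with sh1209 in MIA PaCa-2, and 5.0% and 15.0% higher in Capan-1. Its largest share was with sh1319 in MIA PaCa-2, where 4 of the 20 probes were higher, against 12.2% of all tested probes. None was lower there, against 12.1%. Under median scaling 3 were higher in that comparison, and the other counts of the list did not change. The median change was -0.06, -0.03, -0.06 and -0.02, and under median scaling -0.02, -0.00, 0.02 and 0.03. Its sign turned in Capan-1, where it was still below the median of all tested probes under that scaling (0.09 and 0.11). TGFBR3 encodes betaglycan, a membrane proteoglycan that presents TGF-beta to its receptors. Its log2 level in MIA PaCa-2 was 6.03 and 6.23 with shCtrl, 8.58 and 8.52 with sh1209, and 10.60 and 10.36 with sh1319. In Capan-1 it was 7.62 and 7.51, 7.39 and 7.65, and 8.86 and 9.02. The rise was 2.41 with sh1209 (adjusted p = 3.8e-07) and 4.35 with sh1319 (adjusted p = 2.4e-09) in MIA PaCa-2, and 1.38 with sh1319 in Capan-1 (adjusted p = 1.1e-04). COL18A1, the heparan sulfate-bearing collagen XVIII of basement membranes, rose with sh1319 in MIA PaCa-2 by 1.83 (adjusted p = 4.9e-06) and 0.70 on its 2 probes. Among proteases that cleave proteoglycans, 5 of 11 genes were tested with 7 probes, and 0, 1, 1 and 0 were higher and none lower in the 4 comparisons. With 7 probes, 1 call is 14.3%, and 6.77% to 12.2% of all tested probes were called per direction. Their median changes were -0.16, 0.24, 0.19 and -0.02, and under median scaling -0.12, 0.17, 0.38 and 0.23. The last turned its sign, beside a median of 0.11 for all tested probes under that scaling.

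**Figure D4:**
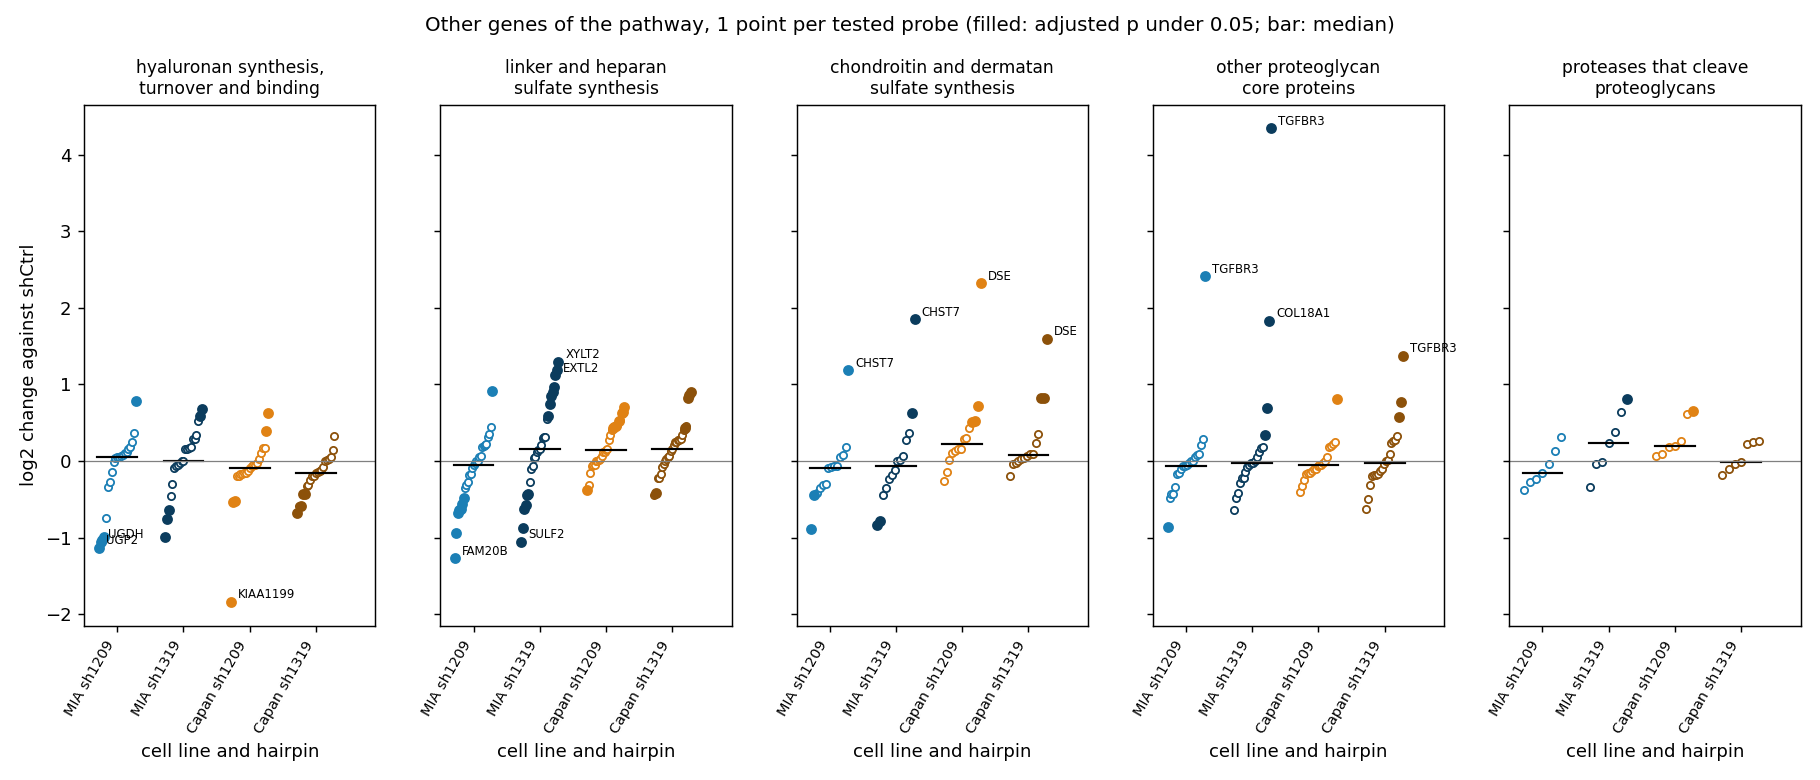
Log2 change against shCtrl (vertical axis) of each tested probe in 5 lists of pathway genes (panels), for each hairpin in each cell line (horizontal axis; MIA, MIA PaCa-2; Capan, Capan-1); filled points passed an adjusted p of 0.05, bars are medians, and genes past the threshold with a change of at least 1 are named. TGFBR3 at 4.35 with sh1319 in MIA PaCa-2 and DSE at 2.32 with sh1209 in Capan-1 stand above the rest of their panels, and KIAA1199 at -1.84 stands below.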

How the data were processed

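Expression was measured on 12 arrays, 2 for each of 6 groups of cell line by hairpin, and samples were grouped by their labels. Per the labels, the deposited table is not normalized, and it gives linear probe intensities with detection p-values. The submitters' processing notes name GenomeStudio 2011.1. A genome build is not given in the sources used here. Of 47320 rows, 92 ERCC control probes were left out after background correction.

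Intensities were background-corrected with limma's nec (normexp from the detection p-values, offset 16) and then quantile-normalized as log2 values. The test took the 24207 probes that were detected (p under 0.05) on 2 or more of the 12 arrays. limma 3.58.1 in R 4.3.3 fitted a mean for each of the 6 groups, which left 6 residual degrees of freedom. Benjamini-Hochberg adjustment ran over all tested probes in each comparison, with a threshold of 0.05. The fit was tested on simulated data. The number of arrays limits the precision.

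The 10 genes, the lists and the comparisons were chosen with earlier results of these data known. The text names every probe of the 10 genes, PTK2, list genes past the threshold with a log2 change of at least 1 against shCtrl, and the 3 probes most like HAPLN1 and like the 2 other probes with the widest range. HAPLN1 was left out of the counts of the 9 probes, and no test of it is reported. Its 2 probes remain among the 24207 tested probes over which p-values were adjusted and shares taken. Gene names are those of the table, and 21041 of 34599 matched a current symbol or 1 gene's older name. Tables and figures were made with Python 3.11.15, pandas 2.3.3, numpy 2.4.6 and matplotlib 3.10.9.

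Alternatives were no background correction, median scaling, no or a stricter filter (detection p under 0.01 on at least 4 arrays), the replicate number as a block, the methods' t-test, a fit of 1 cell line and each array left out in turn. No filter, the stricter filter and the methods' t-test were recomputed only for the counts of called probes, not for changes of single probes. Median scaling of the list counts was added after the data were examined. 1 blood cell marker, and the sum of the list that holds it, is not reported here.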

Additional observations from a re-analysis of the deposited data

Results flagged for a closer look

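The mean response to both hairpins differed between the cell lines by the test of the difference itself, in 5 of the 9 tested probes. These belong to HAS3, SDC4 and SRGN only, and probes of 1 gene are not independent. HAS3 was 4.16 log2 units more positive in MIA PaCa-2 on probe 6980612 (mean change 3.99 there and -0.18 in Capan-1, limma, adjusted p = 1e-07) and 0.79 more positive on probe 380504 (0.79 and 0.01, adjusted p = 0.0077). The second of these values did not pass under median scaling (0.75, adjusted p = 0.06), and since probe 380504 was detected only on the 2 sh1319 arrays of MIA PaCa-2, it is a fitted difference from groups at background. SDC4 gave -1.68 (-0.88 and 0.80, adjusted p = 0.0011), where the Capan-1 mean joins a rise of 1.93 with sh1209 and a change of -0.33 with sh1319. SRGN gave -0.97 on probe 360500 (-0.54 and 0.43, adjusted p = 0.0024) and -0.75 on probe 7550484 (-0.40 and 0.36, adjusted p = 0.0044), from a bright signal in MIA PaCa-2 and one near background in Capan-1. These MIA PaCa-2 means join changes of -0.99 and -0.86 with sh1209 and of -0.10 and 0.07 with sh1319. The Capan-1 calls of SRGN with sh1319 were lost without background correction. The PTK2 probe kept 65.4% of its control level with sh1209 in Capan-1 and 17.9% to 29.2% in the other 3 comparisons, and the part of this in the differences was not tested.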

How the results depend on the processing

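Changes of single probes were recomputed under the alternatives other than no filter, the stricter filter and the methods' t-test. Of 452 such changes of probes other than HAPLN1, 426 kept their direction and their side of the threshold. A further 16 lost the threshold, 4 gained it and 6 turned their sign. All 6 turns were in changes that had not passed. SDC4 between the hairpins in MIA PaCa-2 was -0.11 under median scaling, and from -0.0295 to 0.0629 when 1 array was left out. With an array left out, GPC1 with sh1209 in Capan-1 ranged from -0.21 to 0.46, GPC1 between the hairpins in Capan-1 from -0.46 to 0.22, and SRGN probe 360500 between the hairpins in Capan-1 from -0.27 to 0.017. HAPLN1 probe 2060202 ranged from -4.12 to -2.17 over both hairpins in MIA PaCa-2, with the smallest size without background correction.

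The number of called probes moved by over 1.5 times as follows. The methods' t-test called 0 for each hairpin against shCtrl in both lines and for the hairpins against each other in both lines, with 4, 5, 1, 2, 4 and 1 at an unadjusted p under 0.05. Without background correction, sh1319 in Capan-1 had 1 call in place of 2. That call was SDC1, which was lower, whereas the 2 calls of the main fit were SRGN probes that were higher. With 1 array left out, the counts ranged from 3 to 6 for sh1209 in MIA PaCa-2, where 3 was without replicate 2 of shCtrl, from 0 to 1 for sh1319 in Capan-1 (2 to 3 at an unadjusted p under 0.05), where 0 was without replicate 2 of shCtrl or of sh1319, and from 3 to 5 for MIA PaCa-2 against Capan-1 with shCtrl, where 5 was without replicate 1 of MIA PaCa-2. The cause was not tested.

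Median scaling moved the median change of all probes with sh1319 in Capan-1 from -0.00 to 0.11, and called 2243, 3846, 2459 and 2270 probes in all in place of 4365, 5887, 4074 and 3322 for sh1209 and sh1319, MIA PaCa-2 first. Replicate numbers do not pair the arrays: deviations of same-numbered arrays correlated at -0.06 to 0.16 over 15 pairs of groups, with 1 over 0.1. With the replicate number as a block, 5, 5, 1 and 2 probes were called in these 4 comparisons, and the same number as without the block in all 8. Probes near background, such as GPC1 and SRGN in Capan-1, are limited by their signal.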
